A study of Rattus norvegicus with 12 samples.

Results

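The 10 genes here encode neuropeptide precursors and were measured in cultured rat hippocampal neurons after 48 h of blocked firing, blocked inhibition or vehicle. They were Sst, Cort, Npy, Vip, Adcyap1, Tac1, Cck, Penk, Pdyn and Gal. The genes were chosen with earlier results of these data known. A probe belonged to the set when the gene name printed in the array files was one of these symbols. Penk was also accepted as Penk1. The 10 genes were among 35716 gene names on the array and had 12 of its 41012 probes, 2 each for Adcyap1 and Penk and 1 for each of the others. All 12 probes were well above background on all 12 arrays, so no member was lost to dim signal.

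The cultures came from dissociated hippocampi of Sprague-Dawley rat embryos (E18.5) grown at high density, and drug was added at 10 to 13 days in vitro. The TTX group received tetrodotoxin (0.5 to 1 μM), which blocks voltage-gated sodium channels and so silences action potentials. The BC group received bicuculline (20 μM), which blocks GABA-A receptors and induced burst firing when first applied. At this density, the paper speculates, bicuculline may raise network activity too little to induce homeostatic intrinsic plasticity. The CTL group received vehicle alone at 0.1%, DMSO by the sample titles, whereas the paper names water for the microarray controls. All 3 groups were treated for 48 h and measured on 4 one-color arrays each. The samples were whole cultures, in which fewer cells of a type and less mRNA per cell cannot be told apart. The sources do not say whether the 4 samples of a group came from separate platings, so the p-values reflect only how these samples vary, and that variation may be technical.

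Neuropeptides are cut from larger precursor proteins by proteases in the secretory pathway, stored in dense-core granules and released mainly during sustained firing, after which they act on G-protein-coupled receptors. In the hippocampus many of them mark types of GABAergic interneuron. Somatostatin, cortistatin, NPY, VIP and CCK are classical interneuron peptides, whereas PACAP, dynorphin and enkephalin are also made by glutamatergic neurons. Transcription of several precursor genes is coupled to neuronal activity through calcium and cAMP signaling.

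With TTX, 7 of the 10 genes were lower than in CTL and none was higher, where a gene was called at an FDR under 0.05 and a change of at least 1.5-fold on its probe of highest mean signal. The same call fell on 2.69% of all 35713 genes tested in the lower direction and on 1.48% in the higher direction. The genes that fell were Cort (15.5-fold), Tac1 (3.85-fold), Sst (3.22-fold), Gal (3.03-fold), Npy (2.64-fold), Vip (2.59-fold) and Penk (1.65-fold). Adcyap1 fell 4.28-fold by the dimmer of its 2 probes, the one with the lower mean signal, which makes 8 genes if either probe is counted. The shares over all genes, here and below, are by the probe of highest mean signal. No share by either probe was computed, so counts by either probe cannot be set against them. The median log2 difference of the 10 genes was −1.39, against 0.0123 over all genes. Since the genes were chosen with earlier results known, such shares and medians, here and below, are descriptions and no independent support.

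With BC, 5 of the 10 genes were higher than in CTL and none was lower. Over all 35711 genes tested, 2.14% were called higher and 1.47% lower. Gal (2.96-fold), Cort (2.28-fold), Penk (2.21-fold), Vip (2.12-fold) and Npy (1.74-fold) rose, and Adcyap1 rose 2.79-fold by the same probe that fell with TTX, for 6 genes by either probe. The median log2 difference was 0.634, against −0.00594 over all genes. Between TTX and BC directly, 7 of the 10 genes were lower with TTX and none was higher (8 by either probe), where 6.19% of all genes were called lower and 4.68% higher. These comparisons share arrays, so the directions with TTX and with BC are given side by side and not as independent results.

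**Figure D1:**
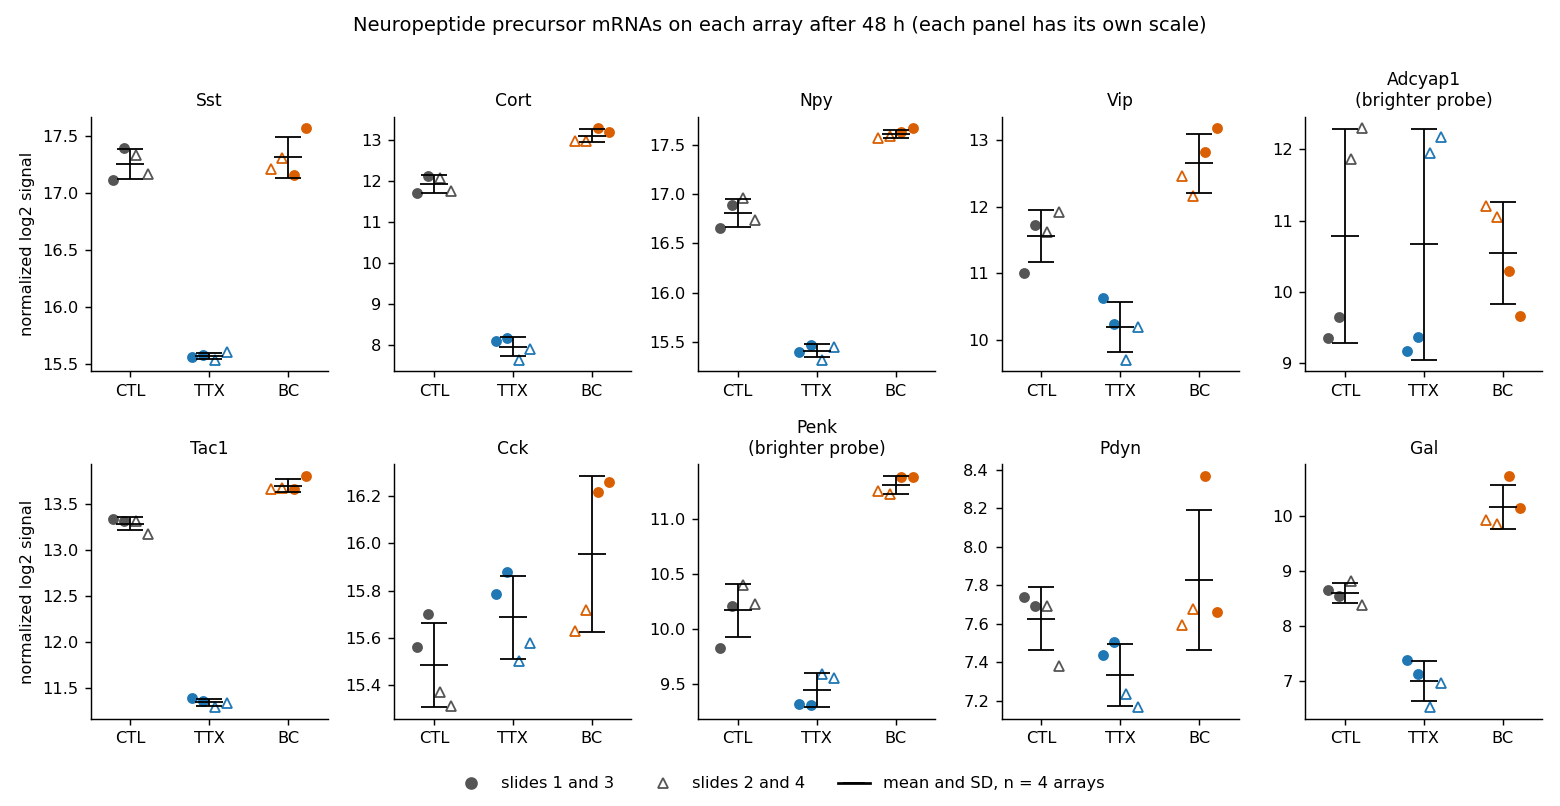
Normalized log2 signal of each neuropeptide gene on every array (vertical axis, a separate scale per panel) in CTL, TTX and BC, with filled circles for arrays on slides 1 and 3, open triangles for slides 2 and 4, and bars for the mean and SD of 4 arrays. Cort lay between 7.65 and 8.18 with TTX, between 11.70 and 12.13 in CTL and between 12.96 and 13.28 with BC, whereas the brighter Adcyap1 probe followed the slides and not the treatments.

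The arrays lay on 4 slides, each with 1 array of every treatment. Once group means had been subtracted, arrays on slides 1 and 3 resembled each other across probes, as did those on slides 2 and 4 (r = 0.197 to 0.41 within a pair of slides and −0.389 to −0.2 between the pairs). The labels do not say what these pairs of slides are. Every call above had the same direction within each pair of slides. When a group's 2 arrays on a pair of slides were averaged and the pair was fitted as a block, which leaves 2 values per group, TTX against CTL kept 4 calls (Sst, Cort, Npy and Tac1), BC against CTL kept 0, and TTX against BC kept all 7. The 5 BC calls then had adjusted p from 0.0704 to 0.19, and BC called 0 probes of the whole array, with 9133 at an unadjusted p under 0.05. The replicate numbers pair TTX with CTL arrays of the same pair of slides. With that number as a block and only these 2 groups in the fit, the TTX call of Vip was lost (adjusted p = 0.0575) and 6 remained.

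Sst and Cort encode somatostatin and cortistatin, related inhibitory peptides that share a receptor-binding core and act on the same family of receptors. Their probes are shown because the genes are paralogs and the probes overlap in part. The capitals mark the longest run of bases common to both, 17 of 60 bases, and over the 35 bases that align around that run 28 were identical. The other 65 pairs of the 12 probes shared runs of 4 to 8 bases. The Sst probe lies at chr11:79126027-79126086 on the plus strand and the Cort probe at chr5:166199061-166199120 on the minus strand of the rn4 build.
Sst probe: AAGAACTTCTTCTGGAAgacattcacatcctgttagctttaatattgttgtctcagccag
Cort probe: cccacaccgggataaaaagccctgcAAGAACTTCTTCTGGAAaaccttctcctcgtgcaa

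Despite the shared run, the 2 probes gave different profiles. On CTL arrays 1 to 4 the log2 signal of Sst was 17.12, 17.40, 17.34 and 17.17. With TTX it was 15.56, 15.58, 15.54 and 15.60, below every CTL array by more than 1.5-fold. With BC it was 17.21, 17.31, 17.16 and 17.57, which overlapped CTL. Sst fell by 1.69 on the log2 scale with TTX (SE 0.0947, limma adjusted p = 4.47e-06). With BC its difference was 0.06, with a 95% interval of −0.152 to 0.267 and an adjusted p of 0.862. That interval leaves no room for a BC change of 1.5-fold in this fit. The Sst signal was among the highest of the 12 probes. None of its spots was flagged as saturated, and Npy read up to 17.66 with BC. Whether a rise is compressed at such high signal was not tested.

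Cort read 11.70, 12.13, 12.07 and 11.76 on the CTL arrays, and 8.11, 8.18, 7.65 and 7.92 with TTX. With BC it read 12.96, 12.97, 13.28 and 13.20. The 3 groups did not overlap, with TTX lowest and BC highest. Cort fell by 3.95 on the log2 scale with TTX (SE 0.141, adjusted p = 1.76e-07) and rose by 1.19 with BC (SE 0.141, adjusted p = 0.000528). From TTX to BC, Cort mRNA spanned 35.2-fold.

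The difference between Cort and Sst within each array was compared as well, since both lie on the same array. Cort minus Sst was −5.42 to −5.27 in CTL, −7.89 to −7.40 with TTX and −4.37 to −3.89 with BC, with no overlap between groups. Cort therefore changed by 2.27 more than Sst in the downward direction with TTX and by 1.13 more in the upward direction with BC. Each had an exact two-sided permutation p of 0.0286, the smallest that 4 against 4 arrays allow, and 0.0571 after adjustment over the 6 pair tests made, so neither passed 0.05.

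Npy encodes neuropeptide Y, an abundant peptide of interneurons that dampens excitatory transmission. Its log2 signal was 16.65, 16.89, 16.96 and 16.74 in CTL, 15.40, 15.46, 15.32 and 15.45 with TTX, and 17.56, 17.58, 17.62 and 17.66 with BC. The groups did not overlap, with TTX lowest and BC highest. Npy fell by 1.40 with TTX (SE 0.0735, adjusted p = 2.71e-06) and rose by 0.80 with BC (SE 0.0735, adjusted p = 0.00013).

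Vip and Adcyap1 encode VIP and PACAP, peptides of one family that share receptors coupled to cAMP. Vip read 11.01, 11.73, 11.61 and 11.91 in CTL and 10.63, 10.24, 9.71 and 10.19 with TTX. With BC it read 12.46, 12.16, 12.82 and 13.18, above all CTL arrays. The groups did not overlap but the arrays of a group spread more than those of Sst, Cort or Npy, with an SE of 0.267. Vip fell by 1.37 with TTX (adjusted p = 0.00843) and rose by 1.09 with BC (adjusted p = 0.0305). The BC value was 1.63 on slides 1 and 3 and 0.54 on slides 2 and 4, and its call was lost under 9 of 25 alternative settings, 5 of which left out a single array (CTL 1, CTL 2, CTL 3, BC 3 or BC 4, adjusted p = 0.0571 to 0.0875).

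The 2 Adcyap1 probes disagreed. The probe with the higher mean signal read 9.34, 9.65, 11.86 and 12.29 in CTL, 9.17, 9.37, 11.95 and 12.17 with TTX, and 11.20, 11.05, 10.29 and 9.65 with BC. In every group its 2 higher values were those of slides 2 and 4. The mean difference between the pairs of slides was 2.175 on the log2 scale, a size reached by 248 of 40989 probes (0.605%), whereas the other 11 probes differed by −0.39 to 0.14. Its SE of 0.876 was accordingly wide, and differences of −0.12 with TTX and −0.24 with BC had adjusted p of 0.987 and 0.97. Within slides 1 and 3 the differences were −0.23 with TTX and 0.47 with BC, and within slides 2 and 4 they were −0.02 and −0.95.

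The dimmer Adcyap1 probe separated the treatments. It read 9.19, 9.33, 9.31 and 8.94 in CTL, 7.34, 7.35, 6.80 and 6.89 with TTX, and 10.47, 10.36, 10.93 and 10.93 with BC. By this probe Adcyap1 fell by 2.10 with TTX (SE 0.176, adjusted p = 5.74e-05) and rose by 1.48 with BC (SE 0.176, adjusted p = 0.000531). Within slides 1 and 3 these were −1.91 and 1.67, and within slides 2 and 4 they were −2.28 and 1.29. The brighter probe lies at chr9_random:1054603-1055059 and the dimmer one at chr9_random:1057315-1057800, both on the plus strand of rn4, so that these 60-base probes span 457 and 486 bases of genome. The dimmer probe, which carries the separation, has no capitals because no part of it is marked.
Adcyap1 dimmer probe: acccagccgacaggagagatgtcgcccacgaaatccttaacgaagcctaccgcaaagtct

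**Figure D2:**
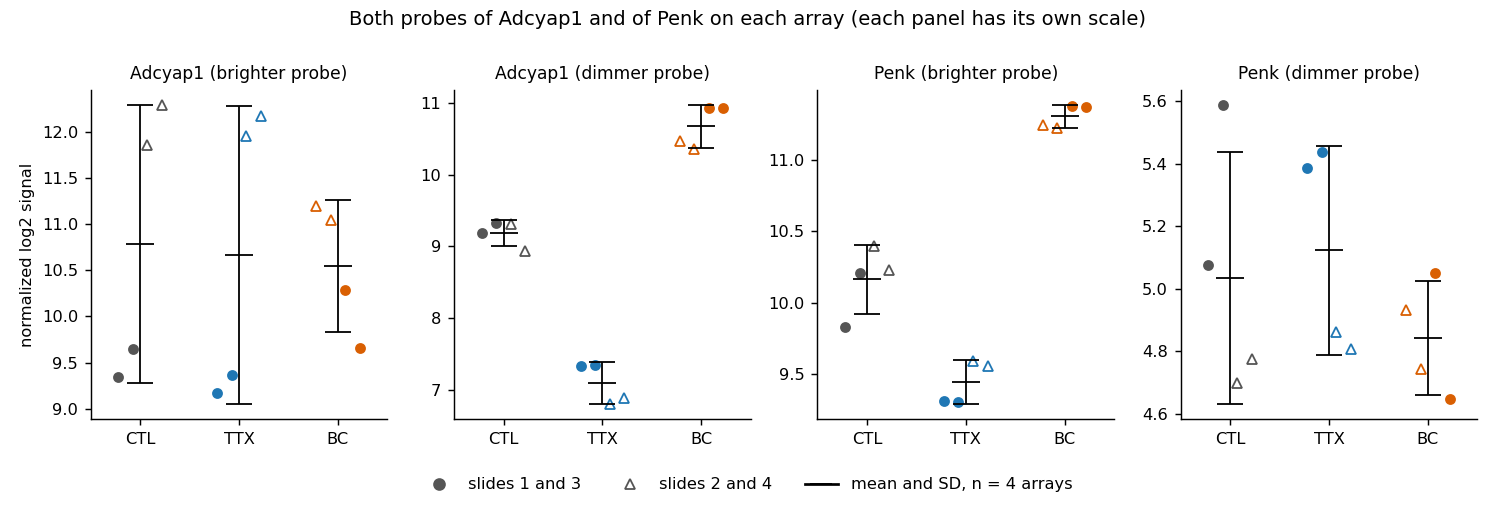
Normalized log2 signal (vertical axis, separate scales) of both probes of Adcyap1 and of Penk on each array in CTL, TTX and BC, with filled circles for slides 1 and 3, open triangles for slides 2 and 4, and bars for the mean and SD of 4 arrays. The dimmer Adcyap1 probe and the brighter Penk probe separate the 3 groups, whereas the brighter Adcyap1 probe separates the slides and the dimmer Penk probe has overlapping groups near a log2 signal of 5.

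Tac1 encodes the precursor of substance P and neurokinin A, the tachykinins that excite neurons through NK receptors. Its SE was the lowest of the 12 probes. Its values were 13.33, 13.31, 13.32 and 13.18 in CTL, 11.38, 11.36, 11.29 and 11.34 with TTX, and 13.66, 13.67, 13.67 and 13.81 with BC. Tac1 fell by 1.95 with TTX (SE 0.0579, adjusted p = 8.92e-08). With BC all 4 arrays lay above all CTL arrays and the difference of 0.42 had an adjusted p of 0.00143, but at 1.33-fold it stayed under the fold threshold and is not counted among the called genes.

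Penk and Pdyn encode the precursors of the opioid peptides enkephalin and dynorphin. The brighter Penk probe, at chr5:17509637-17509696 on the minus strand of rn4, is printed because both Penk calls rest on it alone.
Penk brighter probe: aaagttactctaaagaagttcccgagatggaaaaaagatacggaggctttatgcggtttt

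It read 9.83, 10.21, 10.40 and 10.23 in CTL, 9.31, 9.31, 9.59 and 9.56 with TTX, and 11.25, 11.23, 11.38 and 11.37 with BC. The groups did not overlap. Penk fell by 0.72 with TTX (SE 0.119, adjusted p = 0.0034) and rose by 1.14 with BC (SE 0.119, adjusted p = 0.000258). The dimmer Penk probe, at chr5:17514076-17514135, lay between 4.65 and 5.59 on all 12 arrays, with overlapping groups and differences of 0.09 with TTX (adjusted p = 0.909) and −0.19 with BC (adjusted p = 0.746). With the mean of both probes in place of the brighter one, the differences were −0.32 and 0.48 and neither was called.

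Pdyn read 7.74, 7.69, 7.69 and 7.38 in CTL, 7.44, 7.51, 7.23 and 7.17 with TTX, and 7.59, 7.68, 8.37 and 7.66 with BC. The groups overlapped. Its differences were −0.29 with TTX (95% interval −0.662 to 0.0798, adjusted p = 0.371) and 0.20 with BC (−0.172 to 0.57, adjusted p = 0.623). Pdyn minus Penk, taken within each array, was −2.85 to −2.09 in CTL and −3.71 to −3.01 with BC. That shift of −0.94 had an exact permutation p of 0.0286 and 0.0571 after adjustment, and with TTX the shift was 0.43 (adjusted exact p = 0.171). Vip minus Adcyap1 was not separated with either drug (adjusted exact p = 0.314 with TTX and 0.24 with BC), and this pair used the Adcyap1 probe that followed the slides.

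Cck encodes cholecystokinin, made by a class of interneurons and also by pyramidal cells. It was the one interneuron peptide of the set whose mean was not lower with TTX. It read 15.56, 15.70, 15.37 and 15.31 in CTL, 15.79, 15.88, 15.50 and 15.58 with TTX, and 15.63, 15.72, 16.22 and 16.26 with BC. The groups overlapped, with differences of 0.20 for TTX (95% interval −0.154 to 0.558, adjusted p = 0.551) and 0.47 for BC (0.114 to 0.826, adjusted p = 0.116). The interval for TTX does not reach a 1.5-fold fall.

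Gal encodes galanin, a peptide best known from hypothalamic and brainstem neurons that inhibits transmitter release. It read 8.66, 8.56, 8.81 and 8.39 in CTL, 7.39, 7.14, 6.54 and 6.97 with TTX, and 9.93, 9.86, 10.73 and 10.16 with BC. The groups did not overlap. Gal fell by 1.60 with TTX (SE 0.215, adjusted p = 0.00104) and rose by 1.56 with BC (SE 0.215, adjusted p = 0.00132), an 8.95-fold difference between the drugs.

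**Figure D3:**
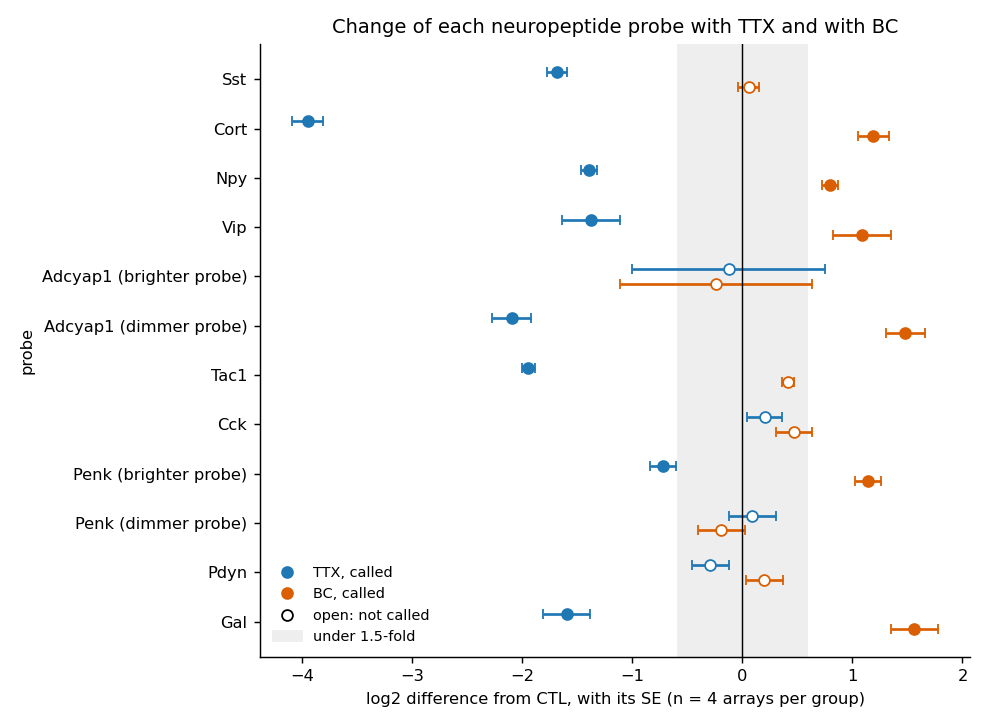
Log2 difference from CTL of each of the 12 neuropeptide probes (horizontal axis) with TTX and with BC, with its SE from 4 arrays per group; filled points were called and the shaded band is under 1.5-fold. Cort at −3.95 with TTX lies farthest from 0, and Sst differs from CTL by −1.69 with TTX and by 0.06 with BC.

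Whether a gene fell with TTX as far as it rose with BC was tested in the same fit by the sum of its TTX and BC differences, which is negative when the fall is larger and accounts for the shared CTL arrays. Of the 10 genes 4 had a sum below 0 that passed the FDR, where 1.26% of all genes had one of the same sign at that FDR, and none had a sum above 0 that passed. The sums were −2.76 for Cort (SE 0.244, adjusted p = 0.000461), −1.63 for Sst (SE 0.164, adjusted p = 0.000931), −1.53 for Tac1 (SE 0.1, adjusted p = 9.22e-05) and −0.60 for Npy (SE 0.127, adjusted p = 0.0391). The Npy sum lost its call under 15 of 22 alternative settings (adjusted p from 0.0211 to 0.213), and none of the 4 passed when arrays of a pair of slides were averaged. For Gal the sum was −0.03 (95% interval −0.86 to 0.791), for Vip −0.29 (−1.31 to 0.736) and for Penk 0.42 (−0.0393 to 0.874), so for these an unequal response was not detected and is bounded only loosely.

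The enzymes and granule proteins that make peptides were examined beside the precursors. Of 12 such genes, 3 were lower with TTX and 0 higher, and 2 were higher with BC and 0 lower. The median log2 difference was −0.141 with TTX and 0.0931 with BC. Pcsk1, the prohormone convertase that makes the first cuts in many precursors, fell by 1.82 with TTX (SE 0.158, adjusted p = 6.78e-05) and rose by 0.63 with BC (adjusted p = 0.0337), while a second Pcsk1 probe had −1.40 with TTX and 0.58 with BC, the latter not called (adjusted p = 0.119). Pam, which amidates the C-terminus of peptides such as NPY, VIP and substance P, fell by 1.41 with TTX (SE 0.0985, adjusted p = 1.79e-05) and rose by 1.12 with BC (adjusted p = 9.97e-05). Scg2, a granin that is itself cut into peptides, fell by 0.64 with TTX (adjusted p = 0.00219). The remaining genes of this list were not called with either drug.

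Of 23 receptor genes for the 10 peptides, 3 were lower and 2 higher with TTX, and 2 were lower and 2 higher with BC. Their median differences were −0.0879 and −0.205, and 2 of them never rose well above background in CTL or TTX. Cckbr, the main brain cholecystokinin receptor, fell by 1.95 with TTX (SE 0.16, adjusted p = 4.87e-05) and rose by 0.77 with BC (adjusted p = 0.014). Cckar went the other way, with a rise of 0.87 with TTX (adjusted p = 0.0035) and a fall of 1.40 with BC (adjusted p = 0.000247). Of the 5 somatostatin receptor genes, Sstr1 (−0.95, adjusted p = 0.00607) and Sstr3 (−0.77, adjusted p = 0.00149) fell with TTX. Sstr2 went the other way (0.55, adjusted p = 0.0262) but stayed under the fold threshold. Sstr4 (0.12) and Sstr5 (0.04) were not called either. Adcyap1r1, the PACAP receptor gene, named after its values were seen, rose by 0.72 with TTX (adjusted p = 0.0363), and with BC the tachykinin receptor genes Tacr2 (−0.72) and Tacr3 (0.62) were called in opposite directions.

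Another 46 peptide precursor genes were listed, of which 41 were on the array. With TTX 7 were lower and 0 higher (median difference −0.211), and with BC 3 were lower and 3 higher (median −0.0692). Pnoc, the precursor of the opioid-like peptide nociceptin, fell by 2.55 with TTX (SE 0.181, adjusted p = 1.97e-05) and rose by 0.71 with BC (adjusted p = 0.0373). Cartpt, a precursor of appetite-related peptides, fell by 1.85 with TTX (adjusted p = 0.00106) and by 0.99 with BC (adjusted p = 0.0347). Prok2, which encodes prokineticin 2, fell by 1.37 with TTX (adjusted p = 0.000508) and was well above background on 3 of the 4 TTX arrays. Nppc, the C-type natriuretic peptide gene, was lower with TTX (−0.61, adjusted p = 0.00375) and rose by 1.13 with BC (adjusted p = 0.000113). Npb (−0.74) and Pyy (−0.98) fell with BC. Crh, the corticotropin-releasing hormone gene, was called lower with TTX and higher with BC.

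**Figure D4:**
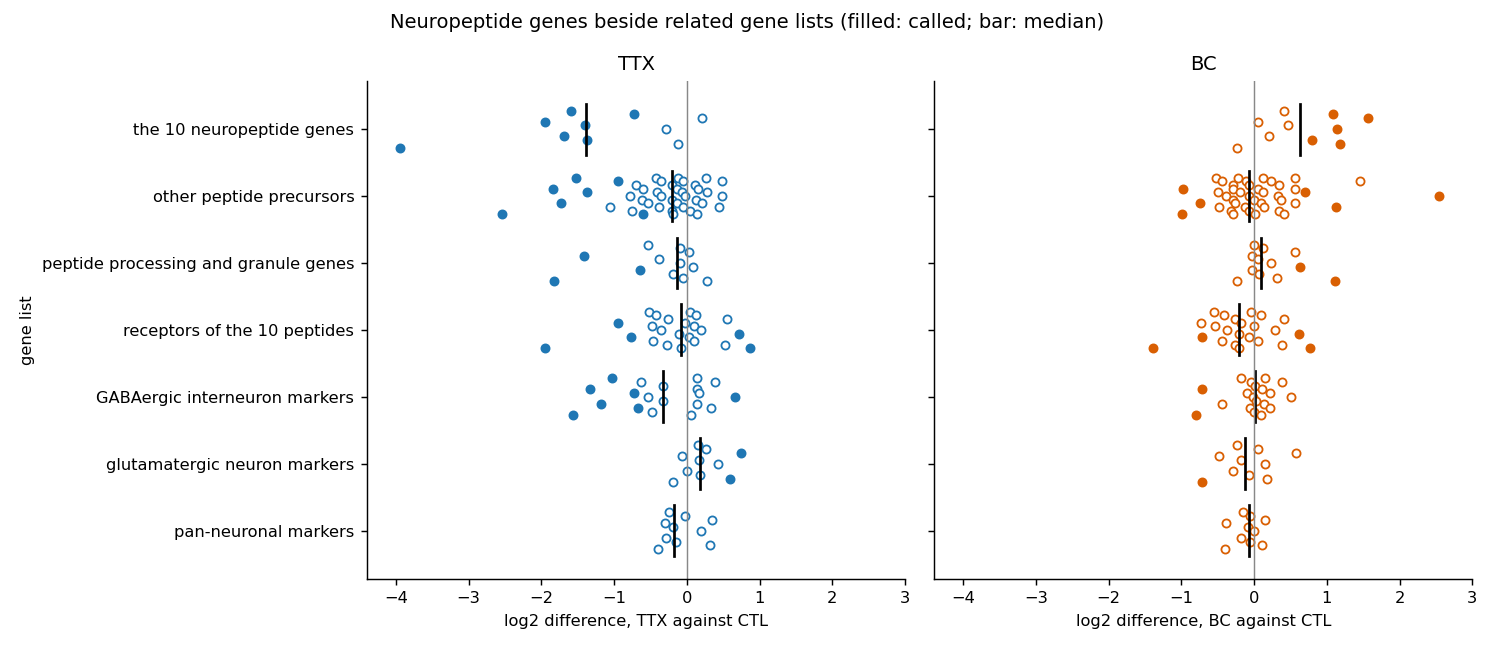
Log2 difference from CTL (horizontal axis) with TTX, left, and BC, right, for the brightest probe of each gene in the neuropeptide set and in related lists; each point is 1 gene, filled when called, and the bar is the list's median. The median of the 10 genes was −1.39 with TTX and 0.634 with BC, while the medians of the 6 other lists plotted lay between −0.334 and 0.175 with TTX and between −0.205 and 0.0931 with BC.

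Since several of these peptides mark interneurons, markers of the cell types in such cultures are given beside them. All 10 pan-neuronal markers were well above background on every array and none was called with either drug, with Rbfox3, a neuronal nuclear protein gene, at −0.15 with TTX and −0.01 with BC. Of 19 interneuron markers on the array, a list without the 10 peptide genes, 6 were lower and 1 higher with TTX (median −0.334). The summed signal of the 19 was 67140 to 68310 with TTX against 92630 to 94800 in CTL. Slc32a1, the brightest of them in CTL (mean log2 signal 15.27, and 14.24 with TTX), weighs most in this sum, which is not on the log scale. Gad1 (−1.56, SE 0.0663, adjusted p = 8.13e-07) and Gad2 (−1.33), which encode the GABA-synthesizing enzymes, and Slc32a1 (−1.03), the vesicular GABA transporter gene, fell, whereas Calb2, which encodes calretinin, rose by 0.67 (adjusted p = 0.000714). With BC 2 of the 19 were lower, Calb2 (−0.80) and Prox1 (−0.72), none was higher (median 0.0102), and the summed signal was 82160 to 91990. Prox1 was dim and stood well above background on 1 of 4 BC arrays, against all 4 CTL arrays. Each interneuron marker was well above background on at least 1 array of each group, and the part of interneuron number in the fall of the peptide genes was not tested.

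The 10 glutamatergic markers on the array stood in other relations. With TTX 2 were higher and 0 lower, Neurod2 at 0.75 and Slc17a6 at 0.59, and with BC Neurod2 was lower (−0.72). Slc17a7, the vesicular glutamate transporter gene of pyramidal cells, differed by 0.18 and −0.29 and was not called. Astrocyte and microglia markers had 0 calls in 8 and 7 genes with either drug, and Gfap, the astrocyte filament gene, differed by −0.06 with BC. Of the 7 microglia markers 3 were well above background on all 4 CTL arrays and 4 on none. The absence of calls in that list therefore says little about microglia.

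Of 10 markers of vascular cells and fibroblasts, most were not called with either drug (median −0.088 with TTX and 0.256 with BC). With TTX 3 were lower, Lum (−0.98), Dcn (−0.62) and Rgs5, whose signal with TTX never stood well above background. With BC 3 were higher, Lum (0.85), Dcn (0.87) and Cldn5, the last well above background on 2 of 4 CTL arrays and on all 4 BC arrays. The summed signal of the list, of which Lum and Dcn are bright members, was 8472 to 9941 with TTX, 11780 to 14660 in CTL and 19140 to 20610 with BC, without overlap. Among oligodendrocyte lineage markers Pdgfra was lower (−0.79) with TTX, and none was called with BC. The part of these cells in the peptide results was not tested.

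The genes whose log2 values over the 12 arrays were most like those of Sst, Cort and Npy are named as a description. They were sought among 11452 genes with a current symbol that were well above background on all arrays, and since the 12 arrays come from 3 groups the likeness is mostly in the group means. For Sst they were Gna14 (r = 0.993), a G-protein subunit gene, Kcns3 (r = 0.992), a potassium channel subunit gene, and Gad1 (r = 0.989). Gna14 differed by −1.73 with TTX and 0.13 with BC, against −1.69 and 0.06 for Sst. For Cort they were Crhbp (r = 0.996), which encodes the binding protein of corticotropin-releasing hormone, Nmbr (r = 0.995), the neuromedin B receptor gene, and Mustn1 (r = 0.995). Crhbp was −4.49 with TTX and 1.06 with BC, a larger TTX difference than that of Cort by value. For Npy they were Rgs4 (r = 0.997), a regulator of G-protein signaling, Inpp4b (r = 0.997), a phosphatase gene, and Kcna4 (r = 0.995), a potassium channel gene with −1.07 and 0.78.

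Promoter sequence was read for the members that the RefSeq table holds. This table of the GRCr8 build lists 8 of the 10 genes, each with 250 bases before and 50 after the start, and both strands were searched for TGACGTCA, the palindromic cAMP response element, and for the shorter TGACG, which every TGACGTCA contains. TGACGTCA was in 1 of 8, Sst, against 1.83% of all 33469 promoters. TGACG was in 5 of 8 against 21.2% of all promoters, namely Sst, Cort, Vip, Tac1 and Gal, and these letters were not in the windows of Adcyap1, Npy and Pdyn. The stretches around each match are shown on the gene's strand with the match in capitals, at positions counted from the start the table uses. They lie at chr11:90461532-90461571 (Sst, 3 to 10), chr5:164845209-164845245 (Cort, −105 to −101), chr1:44470367-44470403 (Vip, −97 to −93), chr4:36645361-36645397 (Tac1, −206 to −202) and chr1:210084615-210084651 (Gal, −63 to −59), on the plus strand for Sst, Vip and Tac1 and on the minus strand for Cort and Gal.
Sst promoter: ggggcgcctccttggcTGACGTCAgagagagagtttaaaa
Cort promoter: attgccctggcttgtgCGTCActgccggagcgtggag
Vip promoter: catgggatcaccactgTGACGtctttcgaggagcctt
Tac1 promoter: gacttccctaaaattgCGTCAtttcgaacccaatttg
Gal promoter: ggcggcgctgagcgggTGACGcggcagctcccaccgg

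The 5 genes with a match all fell with TTX, and of the 3 without one Npy and the dimmer Adcyap1 probe fell as well. A match of letters is a description of the sequence and no evidence of binding.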

How the data were processed

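RNA from 12 samples (4 each of CTL, TTX and BC, assigned from the sample titles) was hybridized to one-color Agilent arrays. The authors deposited scanner intensities per spot, background-subtracted by Feature Extraction 9.5.1.1 and not normalized between arrays. The authors also deposited quantile-normalized log2 values, used only as an alternative; 1 array each of Sst and Npy has no value there. Here log2 of the processed signal was quantile-normalized over all arrays, with outlier spots left out and no filter on dim probes. Group means were fitted to the 12 arrays together with limma 3.58.1 (R 4.3.3), and Benjamini-Hochberg adjustment ran over all probes. A gene was called by its brightest probe at an FDR under 0.05 and a change of at least 1.5-fold; pairs of genes were tested by exact permutation. On each array 74.1 to 78.1% of probes stood well above background. Precision is limited by the number of arrays. The pipeline was also tested on simulated data with known changes.

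Members and gene lists were chosen with earlier results of these data known. Named are all members, up to 4 called genes of lowest adjusted p per list and comparison with CTL, 6 fixed markers (Gad1, Gad2, Slc32a1, Slc17a7, Rbfox3 and Gfap), and the 3 genes most correlated with Sst, Cort and Npy. Probes were named through the GRCr8 RefSeq table, by which 15155 genes were matched and 21611 probes kept the name in the files. Promoters come from that table and probe coordinates (rn4) from the files. Arrays with the same replicate number correlated, after group means were removed, at 0.279 to 0.377 for TTX with CTL, −0.348 to −0.241 for BC with CTL and −0.377 to −0.282 for TTX with BC, so the labels' numbers pair TTX with CTL only. Alternatives changed the background correction, normalization, values, filter, fold threshold, probes, arrays and the slide or replicate block. The slide pair as a block and a replicate block fitted to just the groups being compared were chosen after seeing the data. The result of 1 marker gene is not reported here. Figures used Python 3.11.15 and matplotlib 3.10.9.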

Additional observations from a re-analysis of the deposited data

Results flagged for a closer look

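Of 36 sets of 4 arrays (12 probes in 3 groups), 4 held an array far from the other 3, where chance alone gives such a gap in about 1 in 20 sets. The measure is the gap to the nearest array as a share of the set's range. For Tac1 it was 0.867 in CTL, where array 4 read 13.18 and the next 13.31, and 0.938 with BC, where array 4 read 13.81 and the next 13.67. For Pdyn it was 0.865 in CTL, where array 4 read 7.38 and the next 7.69, and 0.891 with BC, where array 3 read 8.37 and the next 7.68. Leaving out any of these arrays changed no call of Tac1 or Pdyn.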

How the results depend on the processing

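The calls of Sst, Cort, Npy and Tac1 with TTX, and all 7 between TTX and BC, held under all 25 alternatives. Their sizes varied. Between TTX and BC the log2 difference ran from −3.29 to −2.67 for Gal and from −5.21 to −4.85 for Cort. Averaging the arrays of a pair of slides, which leaves fewer values, took the called genes from 7 to 4 with TTX (Vip, Penk and Gal lost, adjusted p = 0.121, 0.1 and 0.0592) and from 5 to 0 with BC. Leaving out 1 array gave 7 with TTX and 4 to 5 with BC. With the replicate block, 7, 4 and 7 genes were called with TTX, with BC and between them (Vip lost with BC, adjusted p = 0.0725, and the sum of Npy, 0.123); with only the 2 groups compared in that fit, 6, 2 and 7 were. Over all probes the main counts were 1715, 1493 and 4579, against 512, 0 and 4256 with averaging. Values near 0 in the main fit changed sign. For Sst, BC against CTL, the difference was −0.00253 at the 75th percentile and −0.0272 to 0.109 over left-out arrays. The sum for Gal was 0.19 with normexp, 0.17 with median signal, 0.20 with the deposited values and −0.22 to 0.12 over left-out arrays. Adcyap1, as the mean of both probes, was 0.62 with BC and −1.73 between TTX and BC, the latter called (limma adjusted p = 0.00701). That mean takes in the dimmer probe, which had 1.48 and −3.58. Over left-out arrays the brighter Adcyap1 probe gave −0.63 to 0.38 with TTX and −0.72 to 0.26 with BC. It gave −0.39 to 0.62 between them and −1.32 to 0.64 for the sum. The cause of the other sign changes was not tested. The sum for Cck passed with slide or slide pair as a block (lowest adjusted p = 0.0119).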
